A study of Mus musculus with 6 samples.

Results

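The genes described here belong to the red blood cell programme: the adult alpha globins Hba-a1 and Hba-a2, the adult beta globins Hbb-bs and Hbb-bt, the heme enzyme Alas2, the anion exchanger Slc4a1, the globin chaperone Ahsp, the transcription factor Klf1 and the erythropoietin receptor Epor. They were chosen by name as 9 genes of one programme, of 55385 genes in the count table. The term red cell genes is a label for this choice and not a measured cell source. 8 of the 9 were matched to a row, and Ahsp was not analysed here. All 8 passed the filter on low counts, as did 14454 genes in all. The libraries were poly(A)-selected and strand-specific RNA-seq of whole liver from male C57BL/6 mice that were 6-8 weeks old at the start, received a high-fat diet (HFD) for 10 weeks, underwent an operation and were fed HFD for 12 more weeks. The operation was vertical sleeve gastrectomy (VSG, removal of most of the stomach along its outer curve) in 3 mice and a sham operation in 3 mice, with 1 library per mouse. The sham mice are replicates 1 to 3 and the VSG mice replicates 4 to 6. Both groups were thus on HFD throughout, and a lean or unoperated control was not part of the comparison.

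Hemoglobin is a tetramer of alpha-like and beta-like chains, each carrying a heme. Erythroid cells make it under the control of factors such as GATA1 and KLF1, and red cells in blood keep remnants of these mRNAs after the nucleus is lost. The adult mouse forms red cells in bone marrow and spleen, whereas the liver is the main site of red cell formation in the fetus. Adult whole liver holds blood in its sinusoids, and its hepatocytes and macrophages take up and degrade hemoglobin and heme. In bulk tissue, more cells of a type and more RNA per cell cannot be told apart.

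Each adult globin chain is encoded by a pair of near-identical copies. Hba-a1 (ENSMUSG00000069919.7, chr11:32283511-32284465, plus strand of GRCm38) and Hba-a2 (ENSMUSG00000069917.7, chr11:32296489-32297298, plus strand) had coding sequences of 426 bases that differed at 1 position, C381T, counted from 1 at the first base of the Hba-a1 start codon. Hbb-bs (ENSMUSG00000052305.6, chr7:103826534-103828096, minus strand) and Hbb-bt (ENSMUSG00000073940.3, chr7:103812524-103813996, minus strand) had coding sequences of 441 bases that also differed at 1 position, C417T, counted in the same way from Hbb-bs. The 90 coding bases ending at these positions show how little a read has to separate the copies. The base that differs is in capitals and all other letters are shared within a pair.
Hba-a1: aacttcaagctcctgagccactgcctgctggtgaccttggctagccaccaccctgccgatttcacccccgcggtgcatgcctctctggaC
Hba-a2: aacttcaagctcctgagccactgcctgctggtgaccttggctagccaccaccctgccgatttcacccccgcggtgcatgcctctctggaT
Hbb-bs: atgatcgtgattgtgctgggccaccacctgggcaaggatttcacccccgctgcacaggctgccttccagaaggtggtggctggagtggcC
Hbb-bt: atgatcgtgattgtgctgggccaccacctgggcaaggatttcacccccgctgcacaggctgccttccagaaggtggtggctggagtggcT
Of all 75-base windows in the GENCODE transcripts, 62.2% of Hba-a1, 81.0% of Hba-a2, 64.3% of Hbb-bs and 56.6% of Hbb-bt occurred without a mismatch in another globin transcript. The split of counts between the copies is therefore uncertain, since the read length and the treatment of reads with several matches are not given in the sources used here. Sums over a pair do not depend on how shared reads were split, but they would be too low, and the ratios built on them would shift, if shared reads were left out of the counts.

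The 250 bases before the RefSeq start (GRCm38.p6) are shown for 3 globins and for Alas2, because the globins varied together between libraries and Alas2 followed them less closely, as the correlations given further on describe. Capitals mark matches to 4 motifs of erythroid and core promoters. The GATA motif was searched as AGATAA or TGATAA or AGATAG or TGATAG on both strands, the CACCC motif of KLF-type factors as CCNCNCCC on both strands, CCAAT on both strands, and TATA as ATATAA or TATAAA on the gene's strand only. Overlapping matches were all counted.
Hba-a1, chr11:32283422-32283671, plus strand: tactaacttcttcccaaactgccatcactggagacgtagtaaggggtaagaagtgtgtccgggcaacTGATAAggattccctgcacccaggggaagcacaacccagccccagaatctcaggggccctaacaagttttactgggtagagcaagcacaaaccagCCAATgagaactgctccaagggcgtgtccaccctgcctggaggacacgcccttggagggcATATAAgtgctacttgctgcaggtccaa
Hbb-bs, chr7:103827929-103828178, minus strand: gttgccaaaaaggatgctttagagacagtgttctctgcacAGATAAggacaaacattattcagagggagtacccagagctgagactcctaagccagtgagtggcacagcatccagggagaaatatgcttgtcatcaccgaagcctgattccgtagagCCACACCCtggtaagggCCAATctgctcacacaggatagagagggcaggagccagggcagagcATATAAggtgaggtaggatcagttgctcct
Hbb-bt, chr7:103813924-103814173, minus strand: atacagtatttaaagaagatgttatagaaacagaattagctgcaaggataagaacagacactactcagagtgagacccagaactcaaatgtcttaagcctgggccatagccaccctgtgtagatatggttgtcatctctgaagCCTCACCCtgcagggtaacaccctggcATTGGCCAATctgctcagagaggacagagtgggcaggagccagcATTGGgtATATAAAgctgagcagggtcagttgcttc
Alas2, chrX:150547167-150547416, plus strand: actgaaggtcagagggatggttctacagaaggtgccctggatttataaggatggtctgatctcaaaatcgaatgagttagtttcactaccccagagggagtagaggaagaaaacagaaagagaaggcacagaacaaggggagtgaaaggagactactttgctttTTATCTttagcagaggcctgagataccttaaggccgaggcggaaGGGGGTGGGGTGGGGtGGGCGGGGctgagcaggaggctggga
Hba-a1 held 1 GATA, 1 CCAAT and 1 TATA match and no CACCC match in these letters. The Hba-a2 promoter was the same sequence shifted by 3 bases. Hbb-bs held 1 match to each of the 4 motifs. Hbb-bt held 1 CACCC match, 3 CCAAT matches and 2 overlapping TATA matches. Alas2 held 1 GATA match on the opposite strand and 4 CACCC matches, 3 of which overlap, with no TATA match. Among 32851 mouse promoter windows of the same length, 26.5% held the GATA motif, 45.9% the CACCC motif, 33.8% CCAAT and 10.5% TATA. Promoter sequences were matched for 7 of the 9 genes. Klf1 and Epor also held 1 GATA match each, and Slc4a1 and Ahsp had no entry. A match is a run of letters and not evidence of binding. For 6 of the 7 genes, all but Epor, the GENCODE gene model begins within the RefSeq promoter window.

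All 4 adult globins were detected in every library, with Hbb-bs the most abundant of the 4 in each of them. Levels are given for each library as CPM, counts per 1000000 of a library total scaled by the trimmed mean of M-values (TMM), on totals of 22804397 to 24191778 counts. A single count was worth 0.037 to 0.048 CPM. Together the 4 globins took 0.00794% to 0.0193% of a library's counts.

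Hbb-bs, one of the paired adult beta chain genes, measured 59.1, 85.4 and 51.2 CPM in sham and 94.4, 102 and 157 CPM in VSG. Every VSG liver was above every sham liver, with VSG replicate 6 highest. The mean was 65.2 ± 17.9 CPM (SD, n = 3) for sham and 118 ± 34.3 CPM (SD, n = 3) for VSG. This was a log2 fold change of 0.86 (SE 0.262, 95% interval 0.23 to 1.48), and the adjusted p of 0.0720 from the edgeR quasi-likelihood test missed the threshold of 0.05. DESeq2 put the same gene at 0.84 with an adjusted p of 0.0257. Without VSG replicate 6 the edgeR value was 0.59.

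Hbb-bt, the copy of Hbb-bs, measured 12.1, 15.7 and 8.36 CPM in sham and 15.9, 14.96 and 23.9 CPM in VSG. VSG replicate 5 was below sham replicate 2, so the groups overlapped. Its log2 fold change was 0.60 (SE 0.275, adjusted p 0.176). Hba-a1, one of the paired alpha chain genes, measured 10.1, 13.3 and 7.90 CPM in sham and 10.5, 13.6 and 21.5 CPM in VSG. Here VSG replicate 4 lay within the sham range, VSG replicate 6 stood above all others, and the log2 fold change was 0.54 (SE 0.302, adjusted p 0.245). Its copy Hba-a2 measured 7.28, 9.69 and 5.47 CPM in sham and 7.65, 10.4 and 12.9 CPM in VSG, with the same order of libraries as Hba-a1 and a log2 fold change of 0.47 (SE 0.270, adjusted p 0.260).

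With the copies summed before the fit, the log2 fold change was 0.51 for the alpha pair (SE 0.280, adjusted p 0.240) and 0.82 for the beta pair (SE 0.263, adjusted p 0.0807). Neither pair passed the test. The sum of the 4 globins was 88.6, 124 and 72.9 CPM in the sham livers and 129, 141 and 216 CPM in the VSG livers. The groups did not overlap, but the lowest VSG liver (128.5 CPM) and the highest sham liver (124.1 CPM) were close. The means were 95.2 ± 26.2 CPM (SD, n = 3) and 162 ± 47.0 CPM (SD, n = 3), a difference of 0.76 on the log2 scale or 1.70-fold. The two-sided exact permutation p was 0.1, the smallest that 3 against 3 libraries allow. With total counts in place of TMM the difference was 0.63.

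**Figure D1:**
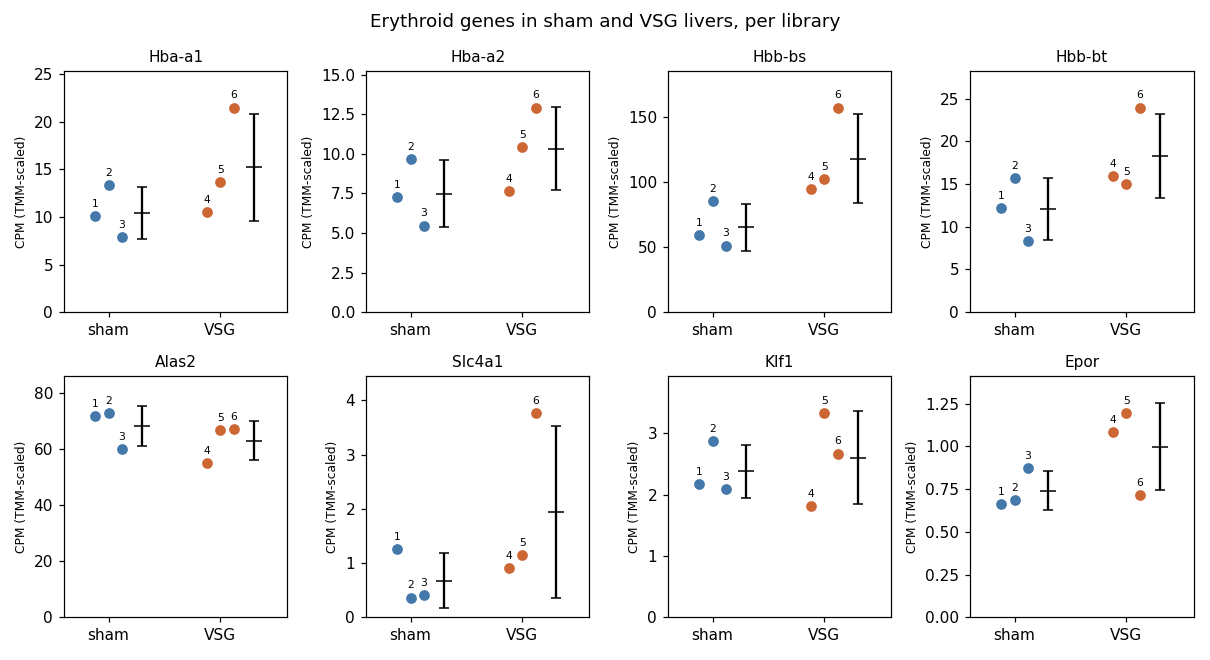
Level of each red cell gene in TMM-scaled CPM (y axis from 0) in the 3 sham (blue) and 3 VSG (orange) livers, 1 numbered point per library, with the group mean and SD in black. For Hbb-bs the VSG livers (94.4 to 157 CPM) lie above the sham livers (51.2 to 85.4 CPM), while for the 7 other genes the groups overlap.

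Alas2, the erythroid form of 5-aminolevulinate synthase and the first enzyme of heme synthesis in red cell precursors (ENSMUSG00000025270.13, chrX:150547375-150570638, plus strand), measured 71.8, 72.8 and 59.8 CPM in sham and 55.0, 66.8 and 67.1 CPM in VSG. The groups overlapped, the lowest library was a VSG liver, and the log2 fold change was -0.11 (SE 0.125, 95% interval -0.41 to 0.18, adjusted p 0.545). Alas2 thus had the narrowest interval of the 8 genes and the only negative value. Its exons overlap those of Apex2, a DNA repair endonuclease gene on the opposite strand, by 311 of 2403 bases. The libraries were strand-specific but the strand setting of the counting is not given in the sources used here, so reads of this stretch may have been assigned to either gene or to neither. Apex2 itself had 187 to 262 counts, against 1215 to 1944 for Alas2.

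Slc4a1 encodes band 3, the chloride-bicarbonate exchanger and main integral protein of the red cell membrane (ENSMUSG00000006574.15, chr11:102348824-102366203, minus strand). The sham livers gave 34, 8 and 11 counts (1.26, 0.366 and 0.418 CPM) and the VSG livers 20, 27 and 79 counts (0.905, 1.15 and 3.77 CPM). Sham replicate 1 was above 2 of the 3 VSG livers, and VSG replicate 6 was the highest. The log2 fold change of 1.49 was the largest of the 8 genes and had the largest error (SE 0.714, adjusted p 0.193). Without VSG replicate 6 it was 0.58, and without sham replicate 1 it was 2.28.

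Klf1, the factor that binds CACCC elements of the beta-globin promoter (ENSMUSG00000054191.8, chr8:84901928-84905291, plus strand), measured 2.18, 2.88 and 2.09 CPM in sham and 1.81, 3.33 and 2.67 CPM in VSG. Both the lowest and the highest library came from VSG. Klf1 had a log2 fold change of 0.13 (SE 0.283, 95% interval -0.54 to 0.81, adjusted p 0.764), and -0.10 without VSG replicate 5. Epor, the receptor through which erythropoietin keeps erythroid progenitors alive (ENSMUSG00000006235.6, chr9:21958897-21963506, minus strand), measured 0.665, 0.685 and 0.874 CPM in sham and 1.09, 1.20 and 0.716 CPM in VSG. VSG replicates 4 and 5 were above all sham livers and replicate 6 was within the sham range, the reverse of its place among the globins. Epor had a log2 fold change of 0.43 (SE 0.306, adjusted p 0.353) on 15 to 28 counts per library.

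In all, 0 of the 8 red cell genes passed edgeR at an adjusted p under 0.05, against a background of 14.7% of all genes tested (6.79% higher and 7.87% lower). 1 gene, Hbb-bs, had an unadjusted p under 0.05. DESeq2 called 1, again Hbb-bs (background 11.9%), as did edgeR with no filter beyond 1 count (background 8.38%), and limma-voom called 0. 7 of the 8 had a positive log2 fold change and the median was 0.51, beside 0.03 over all genes tested. With total counts these medians were 0.37 and -0.11. 1 of the 8 had groups that did not overlap with VSG higher, and 19.8% of all genes tested did (39.7% in either direction).

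Levels per gene length are given from the highest gene to the lowest. The level of Hbb-bs in FPKM (CPM per kilobase of gene length) was 84.9 ± 23.3 in sham and 154 ± 44.6 in VSG (SD, n = 3 each). Next came Alas2 at 28.4 ± 3.0 and 26.2 ± 2.88, Hbb-bt at 17.2 ± 5.20 and 26.0 ± 7.02, Hba-a1 at 12.9 ± 3.34 and 18.7 ± 6.93, and Hba-a2 at 11.2 ± 3.17 and 15.5 ± 3.96 FPKM. In the VSG livers the ranges of mean ± SD overlapped between neighbours in this order of 4 genes, and in the sham livers they overlapped except between Alas2 and Hbb-bt. Klf1 (1.56 ± 0.282 and 1.70 ± 0.500), Epor (0.373 ± 0.0579 and 0.502 ± 0.127) and Slc4a1 (0.139 ± 0.102 and 0.397 ± 0.324 FPKM) were lowest. Klf1 was above Epor in every library. The order of the single globin copies rests on the uncertain split of reads between them.

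**Figure D2:**
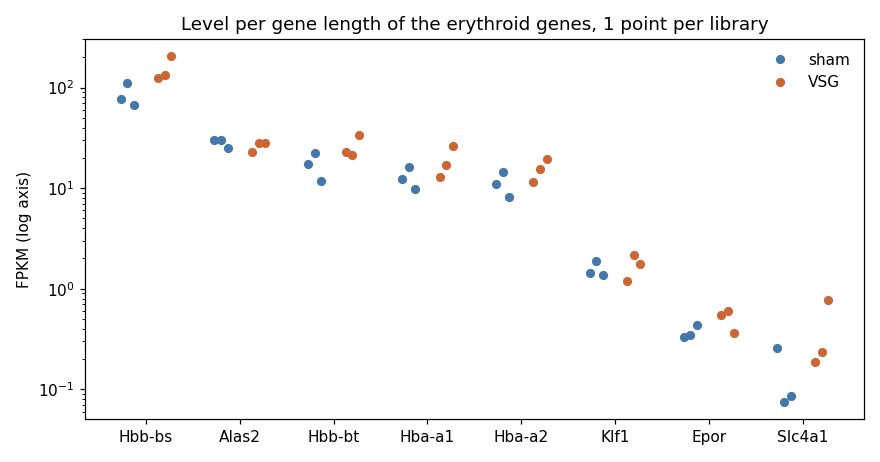
Level per gene length in FPKM (log axis) for the 8 red cell genes, ordered by mean, with 1 point per library, sham in blue and VSG in orange. Hbb-bs is highest in every library, Alas2 stays between 22.9 and 30.3 FPKM, and Slc4a1 spreads most.

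Ratios within a library do not depend on how libraries are scaled. Alpha chains made up 19.6%, 18.5% and 18.3% of adult globin counts in sham and 14.2%, 17.0% and 15.9% in VSG. The VSG shares were all lower, with means of 18.8% ± 0.703 and 15.7% ± 1.44 (SD, n = 3 each). The closest libraries overlapped in counting error, since the exact 95% binomial intervals were 16.6% to 20.1% for sham replicate 3 and 15.7% to 18.3% for VSG replicate 5. Of 6 ratios tested, this and the Alas2 ratio below reached the smallest possible exact permutation p of 0.1, and after adjustment over the 6 both stood at 0.3. Hbb-bt made up 15.5% ± 1.52 of beta counts in sham and 13.5% ± 0.874 in VSG (exact permutation p 0.2), and Hba-a2 made up 41.6% ± 0.642 and 41.0% ± 3.02 of alpha counts (exact permutation p 0.9; SD, n = 3 each).

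Alas2 counts per 1000 adult globin counts were 810, 587 and 820 in sham and 428, 472 and 311 in VSG. All VSG livers were below all sham livers, with means of 739 ± 132 and 404 ± 83.1 (SD, n = 3 each, exact permutation p 0.1). Slc4a1 gave 14.2, 2.95 and 5.73 counts per 1000 globin counts in sham and 7.04, 8.16 and 17.5 in VSG, which overlapped (exact permutation p 0.5). Klf1 gave 25.5 ± 2.83 and 16.7 ± 6.03 per 1000 globin counts (SD, n = 3 each, exact permutation p 0.2), and these overlapped as well.

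**Figure D3:**
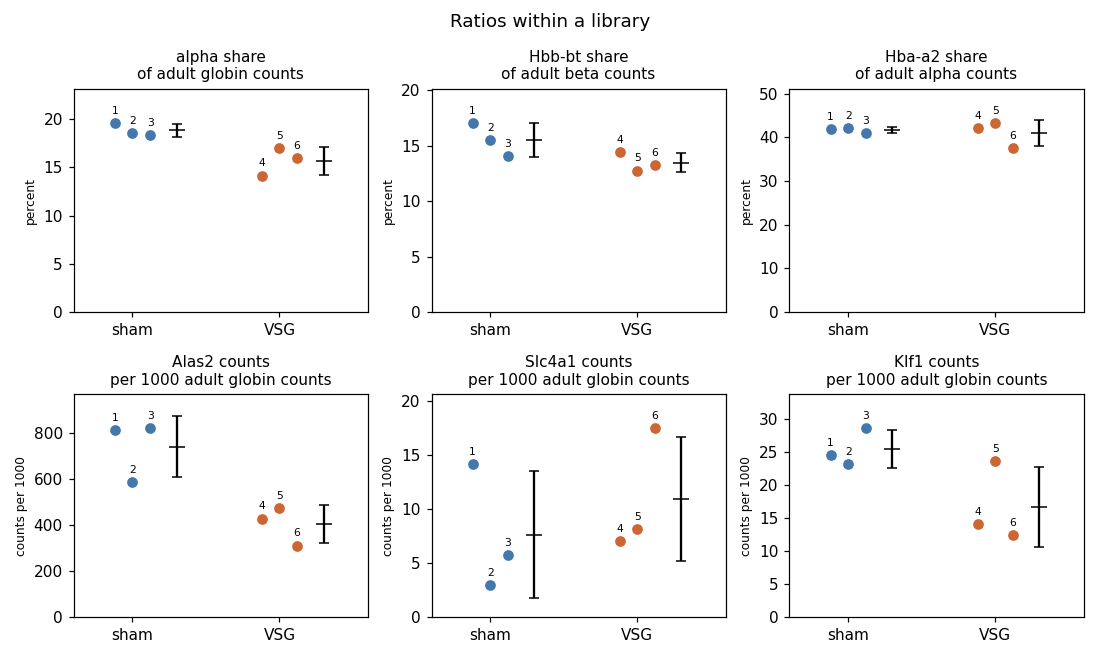
Ratios within each library, in percent or in counts per 1000 adult globin counts (y axes from 0), 1 numbered point per library with mean and SD in black. The alpha share and the Alas2 ratio are lower in all 3 VSG livers than in all 3 sham livers, and the other 4 ratios overlap.

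Across the 6 libraries, the 4 globins followed each other with Pearson r of 0.92 to 0.97 in log2 CPM. Slc4a1 followed them with r of 0.64 to 0.72. Klf1 had r of 0.37 to 0.70 with the globins. Alas2 had r of 0.06 with Hbb-bs, 0.20 with Hbb-bt, 0.39 with Hba-a1, 0.44 with Hba-a2, 0.66 with Klf1 and -0.64 with Epor, and Epor had r between -0.18 and 0.12 with the globins. These values describe 6 libraries that share the group difference and their scaling, and copies share reads. Over the 6 libraries, the genes with a mean of at least 1 CPM whose log2 CPM was most like the mean standardised profile of the 8 were Dicer1, Aff4, Azi2, Zfp946, Fip1l1, Mob3c, Xrn1, Fam204a, Pibf1 and Usp15, with r of 0.979 to 0.995. Only 3 of these 10 were among the top 10 with total counts in place of TMM.

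The label of these genes as erythroid was set against defining markers of red cell precursors, and these were near the floor of 3 counts. Gata1, the factor that specifies the lineage, was counted 0, 1 and 1 times in sham and 2, 1 and 1 times in VSG. Summed counts of Gata1, Rhag (a Rhesus-associated membrane glycoprotein) and Epb42 (protein 4.2) were 7, 3 and 3 in sham and 3, 6 and 17 in VSG. Across 18 erythroid genes that had counts but were too low to test, VSG replicate 6 was the highest library in 13. That liver was also the highest for all 4 globins and Slc4a1, and the part of nucleated red cell precursors in these values was not tested. In sham livers Alas2 averaged 28.4 FPKM, beside 84.9 for Hbb-bs, 17.2 for Hbb-bt, 12.9 for Hba-a1 and 11.2 for Hba-a2. Klf1 averaged 1.56 FPKM and Epor 0.373 FPKM in sham, beside 0.139 FPKM for Slc4a1. Their r with Hbb-bs was 0.06 for Alas2, 0.44 for Klf1 and 0.12 for Epor. Which liver cells expressed Alas2, Klf1 and Epor was not tested. The 6 embryonic and other globin genes (Hba-x, Hbq1a, Hbq1b, Hbb-y, Hbb-bh1 and Hbb-bh2) had at most 1 count in any library.

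Transcription factors of the erythroid programme were called in 3 of 10 tested genes, all higher in VSG, beside 14.7% of all genes tested, with a median log2 fold change of 0.41. No gene of this list was called when sham replicate 1, 2 or 3 or VSG replicate 4 or 6 was left out. Myb had 7, 3 and 8 counts in sham and passed the filter through the VSG livers, and with at least 10 counts in every library 2 genes of the list were called. Nfe2, the large partner of the NF-E2 dimer that acts at globin enhancers, rose by 3.02 (SE 0.642, adjusted p 0.0293) from 0.665, 0.594 and 0.494 CPM to 7.83, 1.33 and 5.20 CPM. Myb, a factor of immature blood cells, rose by 4.43 (SE 1.03, adjusted p 0.0354) from 0.259, 0.137 and 0.304 CPM to 8.87, 0.513 and 6.34 CPM. Both are also expressed in the myeloid lineage, and both were highest in VSG replicate 4 and lowest of the VSG livers in replicate 5. Neither passed limma-voom (adjusted p 0.0942 and 0.185). Bach1, a heme-sensing repressor of globin and heme oxygenase genes, rose by 0.45 (SE 0.114, adjusted p 0.0435), but with total counts the value was 0.31 and the adjusted p 0.242. The Bach1 call was also lost without VSG replicate 5 (adjusted p 0.0685) and with no filter beyond 1 count (0.0792). The abundant factors Klf3 (-0.29, adjusted p 0.331) and Ldb1 (0.26, adjusted p 0.150) did not pass.

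Proteins of the red cell membrane and skeleton were called in 1 of 9 tested genes of 20 listed (11.1%, beside 14.7% of all genes tested), with a median of 0.26. The 1 called gene was Gypc, glycophorin C, which fell by 1.43 (log2, SE 0.326, adjusted p 0.0339), from 11.5, 20.3 and 17.9 CPM to 4.48, 8.93 and 4.96 CPM. Its call was lost without sham replicate 2 or 3 or VSG replicate 4 or 6, and Gypc is also expressed outside red cells. The abundant members Epb41 (0.27, adjusted p 0.183), Aqp1 (-0.31, adjusted p 0.388) and Slc2a1 (0.26, adjusted p 0.242), which many cell types share, did not pass. Among red cell enzymes and late maturation genes, 2 of 13 tested genes were called (15.4%, beside 14.7% of all genes tested) and both were lower, with a median of -0.11. Pklr, pyruvate kinase of liver and red cells, fell by 2.30 (SE 0.383, adjusted p 0.0167), and Prdx2, a peroxiredoxin, fell by 0.52 (SE 0.120, adjusted p 0.0352). The number called lower was 1 without sham replicate 2 or VSG replicate 4, 0 without sham replicate 3 or VSG replicate 6, and 3 without VSG replicate 5. The antioxidant enzymes Cat (-0.75, adjusted p 0.165) and Gpx1 (-0.35, adjusted p 0.158) were the most abundant and did not pass in edgeR. DESeq2 called Gpx1 lower (-0.38, adjusted p 0.00908) and 3 genes of the list lower in all, beside 1749 of 27530 genes. Hepatocytes express these 4 enzymes strongly.

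The 8 heme synthesis genes other than Alas2 all had negative values, with a median log2 fold change of -0.37, and 1 of them was called (12.5%, beside 14.7% of all genes tested). With total counts 3 were called lower, beside 1512 of 14454 genes over all, and with DESeq2 2 were, beside 1749 of 27530. Alad, the second enzyme of the pathway, fell by 0.70 (SE 0.185, adjusted p 0.0497), a value near the threshold that did not pass with limma-voom (adjusted p 0.0546), with DESeq2-type size factors in edgeR (0.0521) or when any library but VSG replicate 5 was left out (0.0529 to 0.164). Alas1, the housekeeping form of 5-aminolevulinate synthase that liver uses, measured 382, 1592 and 699 CPM in sham and 109, 214 and 274 CPM in VSG. The groups did not overlap, and the sham livers spread widely. The log2 value of -2.16 (SE 0.580) had an adjusted p of 0.0513 in edgeR and passed with DESeq2 (0.000493), with total counts (0.0252), with no filter beyond 1 count (0.0169) and without sham replicate 1 (0.0424). Cpox (-0.57, adjusted p 0.243) and Fech, which inserts iron into heme (-0.13, adjusted p 0.565), did not pass. In sham livers Alas1 was at 144 ± 102 FPKM and Alas2 at 28.4 ± 3.0 FPKM, and in VSG livers Alas1 was at 32.2 ± 13.6 FPKM and Alas2 at 26.2 ± 2.88 FPKM (SD, n = 3 each).

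Of 10 genes for iron supply to heme, 2 were called higher and 1 lower, beside 6.79% and 7.87% of all genes tested, with a median of 0.01. The number called higher was 0 when sham replicate 1, 2 or 3 or VSG replicate 6 was left out and 1 without VSG replicate 4, and the call of Glrx5 was lost without sham replicate 3 or VSG replicate 6. Tfr2, a transferrin receptor of hepatocytes and erythroid cells, rose by 0.69 (SE 0.157, adjusted p 0.0340). Flvcr1, which was described as a heme exporter, rose by 0.98 (SE 0.241, adjusted p 0.0407). Glrx5, needed for iron-sulfur clusters and thereby for heme synthesis, fell by 1.09 (SE 0.161, adjusted p 0.0130). With total counts Tfr2 and Flvcr1 no longer passed (adjusted p 0.0603 and 0.103). Slc11a2, the iron transporter DMT1 (1.48, adjusted p 0.0635), did not pass in edgeR but did with DESeq2 (0.00501), with no filter beyond 1 count (0.0278) and without VSG replicate 5 (0.00488).

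Erythropoietin signalling was called in 3 of 10 tested genes, beside 14.7% of all genes tested, with a median of 0.41. There was 1 call without sham replicate 1 or 2 and none without sham replicate 3. Without VSG replicate 6 there were 2, but these were other genes than the 3 named next, which all lost their calls. The feedback inhibitor Socs3 rose by 2.44 (SE 0.328, adjusted p 0.0104), the kinase gene Pim1 rose by 0.86 (SE 0.155, adjusted p 0.0200, but 0.0644 with total counts) and the survival gene Bcl2l1 fell by 0.52 (SE 0.124, adjusted p 0.0368). These 3 genes answer to many cytokines besides erythropoietin. The STAT5 targets Cish (2.22, adjusted p 0.0735) and Socs2 (2.03, adjusted p 0.0540) missed the threshold and were higher in VSG replicates 4 and 5 than in replicate 6, at 42.7, 19.8 and 5.25 CPM for Cish against 5.91, 5.16 and 3.42 CPM in sham. DESeq2 called both (adjusted p 0.00355 and 0.00164), and so did edgeR with no filter beyond 1 count (0.0307 and 0.0192) or without VSG replicate 6 (0.0474 and 0.0220). With DESeq2 this list had 5 genes called higher, beside 1521 of 27530 genes over all. Epo itself had 0 counts in the sham livers and 0, 1 and 7 in the VSG livers. Stat5b (-0.09, adjusted p 0.508) and Ptpn6 (0.28, adjusted p 0.457) did not pass.

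Of 10 genes that scavenge or degrade hemoglobin and heme, 7 were called, beside 14.7% of all genes tested, and 6 of the 7 were higher in VSG. Their median log2 fold change was 0.84. No gene of this list was called without sham replicate 3 or without VSG replicate 6, 2 were called higher without sham replicate 2, and 3 were without sham replicate 1 or VSG replicate 4. Over all genes, 159 and 210 were called without sham replicate 3 and VSG replicate 6. Hp, haptoglobin, which binds free hemoglobin, rose by 1.84 (SE 0.392, adjusted p 0.0296), and Hpx, hemopexin, which binds free heme, rose by 2.03 (SE 0.408, adjusted p 0.0260). Both are also acute phase proteins made by hepatocytes. Cd163, the macrophage receptor for haptoglobin-hemoglobin, measured 2.14, 11.1 and 5.74 CPM in sham and 71.7, 47.8 and 130 CPM in VSG, a rise of 3.73 (SE 0.638, adjusted p 0.0176). Lrp1, a receptor for heme-hemopexin, rose by 0.97 (SE 0.175, adjusted p 0.0201). Hmox1, the inducible heme oxygenase, rose by 2.11 (SE 0.345, adjusted p 0.0163) from 48.6, 28.0 and 37.6 CPM to 241, 104 and 150 CPM. The other 2 calls, named after their values were seen, were Hmox2 (0.48, adjusted p 0.0216), which did not pass with total counts, and Blvrb, a biliverdin reductase that fell by 0.62 (adjusted p 0.0245). Macrophages express Cd163 and Hmox1, and the summed level of 9 macrophage markers was 639, 336 and 472 CPM in sham and 1959, 650 and 1220 CPM in VSG, with 5 of the 9 called higher. Their part in these values was not tested.

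**Figure D4:**
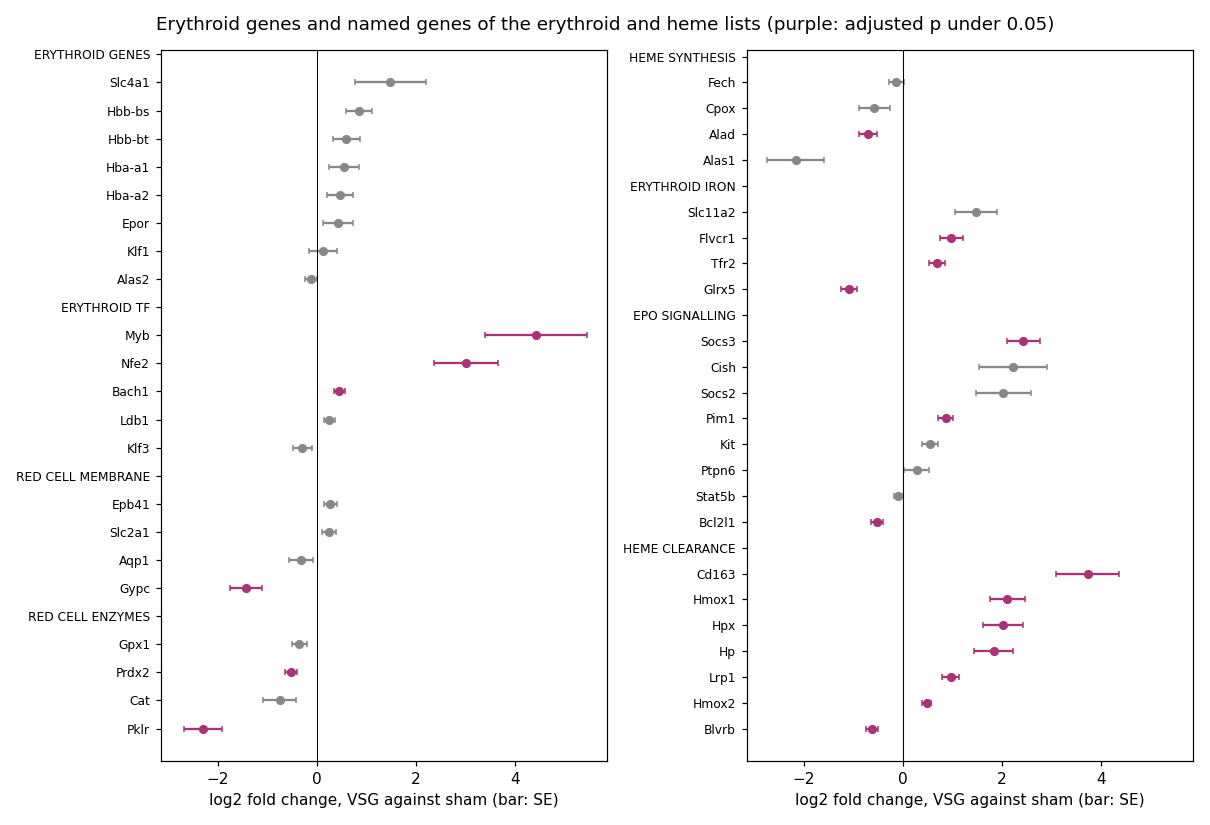
Log2 fold change of VSG against sham (x axis, bars are SE) for the 8 red cell genes and the genes named in the text from 7 lists of the wider programme, with purple points at an adjusted p under 0.05. No red cell gene is purple. Only named genes of the lists are shown, and for heme clearance these are the 7 called of 10 tested. Over all genes tested 14.7% were called.

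Marker lists of other blood cells are set beside the globins. Over all genes tested, 14.7% were called and 6.79% were called higher. All 12 neutrophil markers were called higher in VSG, with a median log2 fold change of 6.98. The summed level of the 12 was 15.3, 2.92 and 5.13 CPM in sham and 1895, 156 and 873 CPM in VSG. VSG replicate 4 was thus highest and replicate 5 lowest of the VSG livers. Nfe2, Myb and the summed macrophage and proliferation markers shared this order and the globins did not. Its cause was not tested. The number called was 4 with limma-voom (median 6.51), 9 without sham replicate 1 (median 7.75), 2 without sham replicate 2 (median 6.57), and 1 without sham replicate 3 (median 6.71) or VSG replicate 6 (median 7.03). With at least 10 counts required in every library, S100a8 and S100a9 alone could be tested and both were called, so the other 10 passed the usual filter through the VSG livers. Platelet markers were called in 1 of 4 tested genes of 10 listed, Ppbp (3.10, SE 0.654, adjusted p 0.0289), a call kept without VSG replicate 5 and lost when any other library was left out and with limma-voom (adjusted p 0.0788). Their summed level was 16.0 to 21.4 CPM in sham and 17.1 to 31.4 CPM in VSG, and Itga2b (0.63, adjusted p 0.1003) and Vwf (0.02, adjusted p 0.965) did not pass. Of 8 blood progenitor markers 1 was called, again Myb, which passed the filter through the VSG livers, and 0 were called with at least 10 counts in every library, while the abundant Kit (0.55, adjusted p 0.0638) and Hlf (-0.88, adjusted p 0.148) did not pass in edgeR. DESeq2 called 2 of the progenitor markers, beside 11.9% of all genes, with Kit at an adjusted p of 0.0443. Which liver cells expressed Kit and Hlf was not tested. Of 10 proliferation genes 0 were called by edgeR, DESeq2 or limma-voom and 0 had an unadjusted p under 0.05 in edgeR, although 2 were called without VSG replicate 5. Their log2 fold changes ranged from -0.05 to 1.88. The part of blood content, neutrophils and cell mixture in the globin values was not tested.

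**Figure D5:**
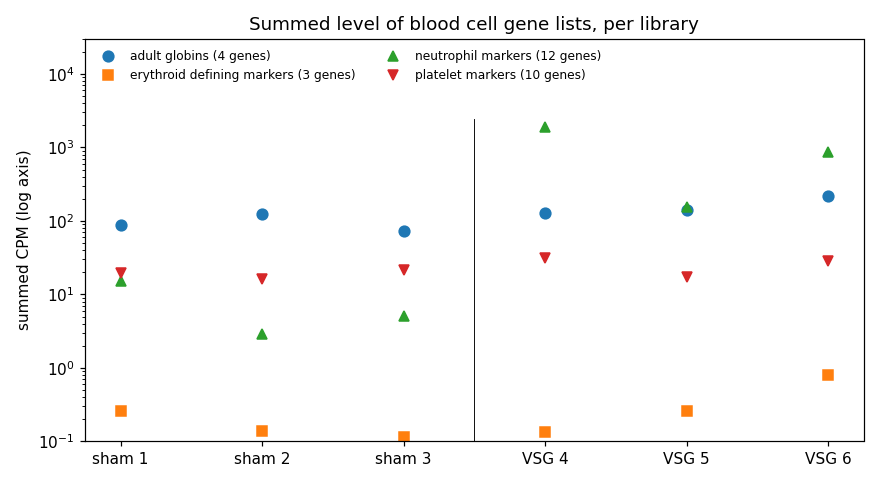
Summed CPM (log axis) of 4 adult globins, 3 defining markers of red cell precursors, 12 neutrophil markers and 10 platelet markers in each library, sham on the left of the line and VSG on the right. Neutrophil markers span from 2.92 to 1895 CPM, while the globin sum spans from 72.9 to 216 CPM.

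Over all lists other than the 8 red cell genes, 33 genes were called higher and 7 lower of 129 tested, beside 6.79% and 7.87% of all genes tested. Myb and 10 of the neutrophil markers among the 33 passed the filter through the VSG livers. With at least 10 counts in every library, 22 list genes were called higher and 7 lower. Over all 13029 genes tested in that fit, 874 and 1053 were. The counts under the usual filter changed when single libraries were left out, as did those over all genes. List counts were 20 higher and 6 lower without sham replicate 1, 7 and 2 without replicate 2, and 2 and 0 without replicate 3. They were 23 and 5 without VSG replicate 4, 36 and 8 without replicate 5, and 5 and 0 without replicate 6.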

How the data were processed

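Liver RNA of 3 sham and 3 VSG mice was profiled, 1 library per mouse, and replicates were compared within each group before use. The authors deposited raw read counts per gene, made from strand-specific poly(A) libraries with FastQC 0.10.1, STAR 2.6.0 and featureCounts 2.0.3 (versions per the labels) on mm10. Annotation release, strand setting and the treatment of multiply matching reads are not given in the sources used here. The deposited gene length column, in bases, was used for FPKM. Gene IDs were matched to GENCODE M21 symbols (55144 of 55385, of which 54487 also by version), and 241 were not matched. Some genes of the lists are counted but not reported here. Members, lists and named genes were chosen with earlier results of these data known. The named genes are taken, per list, from the 3 most abundant tested genes and the 3 largest called changes, and from the 10 genes most like the members. Hmox2, Blvrb, Vsig4, Cish, Socs2, Epo, Apex2 and the genes too low to test were named outside this rule, after their values were seen.

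Counts were tested with edgeR 4.0.16 (filterByExpr with a minimum count of 10 and total of 15, TMM, quasi-likelihood test, Benjamini-Hochberg adjustment over 14454 genes, call at 0.05), in R 4.3.3. This called 981 genes higher and 1137 lower. With total counts the calls were 486 and 1512, and the median log2 fold change over all genes was -0.11 in place of 0.03. limma 3.58.1 (voom) and DESeq2 1.42.0, other scalings and filters, and leaving out each library were the alternatives. The fit was tested on simulated data. Single sums and ratios were compared with two-sided exact permutation tests in SciPy 1.17.1. Intervals on shares are exact Clopper-Pearson and, like the floor of 3 counts, cover counting error only. Depth was 22804397 to 24191778 counts per library. The edgeR p-values set a group difference against the spread between livers within a group, moderated over all genes. Permutation p-values rank the difference among the splits of these 6 livers.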

Additional observations from a re-analysis of the deposited data

How the results depend on the processing

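The number of red cell genes called was 0 with edgeR and became 1 (Hbb-bs) with DESeq2 (11.9% of 27530 genes called) and 1 (Hbb-bs, adjusted p 0.0498) with no filter beyond 1 count (8.38% called). The log2 fold change of Hbb-bs ranged from 0.59 to 1.09 over 13 alternatives with adjusted p from 0.0257 to 0.222. Klf1 ranged from -0.10 (without VSG replicate 5) to 0.34 when single libraries were left out, and no other red cell gene changed sign under any alternative run. For the other lists, 11 genes were called lower with DESeq2 and 21 higher with limma-voom, and leaving out 1 library gave 2 to 36 called higher and 0 to 8 called lower. Of the 10 genes most like the red cell genes, 3 were shared with total counts. In the same leave-one-out fits, the Hba-a2 share of alpha counts (VSG minus sham) ranged from -1.81 to 1.06 percentage points and the Slc4a1 ratio from -0.015 to 6.55 counts per 1000, with the turned value without VSG replicate 6 for both. Vwf ranged from -0.25 to 0.16 and Ptpn6 from -0.0047 to 0.47. Vwf also turned to -0.0080 with DESeq2, -0.022 with limma-voom, -0.13 with total counts and -0.019 with no filter. The cause was not tested. No paired analysis was possible because the groups share no replicate number. Slc4a1, Epor and the marker genes near the floor rest on few counts, and the part of depth in their spread was not tested.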

Other observations

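Outside the red cell programme, 5 of 9 macrophage markers were called higher in VSG, beside 6.79% of all genes tested, with a median log2 fold change of 1.23. The number called was 3 without VSG replicate 4 and 0 when VSG replicate 6 or either of sham replicates 2 and 3 was left out, with medians of 1.08 to 1.22 in these 3 fits. Marco, a scavenger receptor, rose by 4.96 (SE 1.02, adjusted p 0.0269), the embryonic-type Kupffer cell marker Timd4 by 3.03 (SE 0.565, adjusted p 0.0216), and Spic, the factor of heme-recycling macrophages, by 2.63 (SE 0.438, adjusted p 0.0167). Spic measured 3.32, 2.28 and 2.28 CPM in sham and 21.0, 7.18 and 20.9 CPM in VSG. Clec4f (1.23, adjusted p 0.0260) and Vsig4 (1.51, adjusted p 0.0405) were the other 2 called, and Cd5l (0.90, adjusted p 0.188) was not. Of 10 lymphocyte markers 1 was called (14.7% of all genes tested were), the immunoglobulin heavy chain gene Ighm (2.87, SE 0.180, adjusted p 0.00177). Of 9 hepatocyte markers 1 was called (11.1%), the fibrinogen gene Fgb (2.36, SE 0.277, adjusted p 0.00783, lost without sham replicate 3), while Alb (-0.30, adjusted p 0.687) and Apob (0.36, adjusted p 0.427) did not pass.

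After the values were seen, the likeness measure was also run on 2 single profiles. The genes most like the globin sum over the 6 libraries were Sec63, Terf1 and Cd226 (r 0.998 each), and those most like Alas2 were Bbs7 (r 0.983), Fkbp3 (r 0.978) and Csrp2 (r 0.977). No gene stood in both lists of 10.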
